A study of Mus musculus with 23 samples.

Results

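Interleukin-6 (IL-6) family genes were followed through quadriceps muscle and epididymal fat of mice with and without orthotopic pancreatic tumors. The genes were chosen by symbol: the cytokines Il6 and Lif, the receptor chains Il6ra, Osmr, Lifr and Il6st, the kinases Jak1 and Jak2, the transcription factor Stat3 and the feedback inhibitor Socs3. All 10 were among the 16962 genes counted in fat and 9 were among the 12831 genes counted in quadriceps, out of 17194 genes in both tissues together; quadriceps Il6 was not analysed here. RNA was sequenced from 23 libraries, each from 1 mouse, and muscle and fat came from separate mice that were sequenced separately, so that tissue and sequencing run cannot be told apart.

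The animals were male C57BL/6J mice, 8 weeks old at surgery. The no tumor group had sham surgery (3 quadriceps and 4 fat libraries). The KPC group received pancreatic tumor cells of a mouse model with Trp53 R172H and Pdx1-Cre among its alleles, as a single clone that had passed through CRISPR with a null guide (4 and 4 libraries). The KPC IL6KO group received a single clone of the same line in which Il6 had been edited with CRISPR/Cas9 (4 and 4 libraries). Each tumor group therefore stands for 1 clone. The host mice carried no edit and can still make IL-6, so Il6 in fat is no check of the edit. All groups were killed when the KPC mice had wasted. The comparisons address which transcripts of the pathway differed in the wasting tissues and which of them depended on the tumor clone that lacked Il6.

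IL-6 binds its receptor, encoded by Il6ra, either on the cell surface or as a soluble form, which is called trans-signaling. The complex then pairs with the shared signal-transducing chain encoded by Il6st. Leukemia inhibitory factor, encoded by Lif, and oncostatin M use the same chain together with the products of Lifr or Osmr. The paired chains activate JAK kinases, which phosphorylate STAT3, and STAT3 in turn induces Socs3, whose product blocks the receptor complex. The pathway is known for the hepatic acute phase response and for muscle wasting in cancer.

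Levels are given as CPM, which are counts scaled to library size after correction by the trimmed mean of M values (TMM). Total counts were 19259763 to 74907810 per quadriceps library and 26306377 to 56308545 per fat library, so that 3 counts equal 0.0462 to 0.154 CPM in quadriceps and 0.0474 to 0.123 CPM in fat. A gene was called when the edgeR quasi-likelihood test gave a false discovery rate (FDR) of at most 0.05 over all genes of the tissue and the fold change was at least 1.5. All 6 skeletal muscle fiber markers were present in quadriceps (summed level 113116 to 182593 CPM), and all 6 adipocyte markers in fat (1039 to 19166 CPM). Fat also held transcripts of the adjoining epididymis: Gpx5, an epididymal antioxidant enzyme, ranged from 21347 to 54957 CPM in 7 libraries (the 4 of KPC, no tumor 5 and 7, and KPC IL6KO 6) and from 4.69 to 85.8 CPM in the remaining 5. Low Gpx5 does not mean that epididymal transcripts were absent. The 8 epididymis markers summed to 13498 and 18341 CPM in no tumor 6 and 8. In KPC IL6KO 5, 7 and 8 they summed to 752, 15225 and 10163 CPM. Fat library KPC IL6KO 6 stood apart from the other 3 of its group, so values without it are given for the genes that differed most in fat. It was also the only library of its group with high Gpx5, which all 4 of KPC had. Values without it thus rest on KPC IL6KO libraries of low Gpx5 only. They are not freer of the difference in epididymal transcripts.

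The Il6 and Socs3 promoters are shown because these genes differed most from no tumor in fat and because Socs3 is the classical STAT3 feedback target. RefSeq held 11 promoter windows for the 10 genes on GRCm38.p6, each running from 250 bases before to 50 bases after an annotated start. Capitals in the Il6 window (chr5:30012864-30013163, plus strand) mark 2 motifs searched on both strands: TTGNGCAA, letters known from C/EBP sites, 128 bases before the start, and an NF-kB motif, here GGGATTTTCC with any base allowed at the fourth and the fifth place, 44 bases before it. They were chosen after the sequence had been seen, and occur in 2.94% and 1.63% of all 32851 windows. Capitals in the Socs3 window (chr11:117969317-117969616, minus strand) mark TTCNNNGAA, the palindromic core of STAT sites, 154 bases before the annotated start of that window. The window ends 131 bases upstream of the start of the coding Socs3 transcript in GENCODE.
Il6: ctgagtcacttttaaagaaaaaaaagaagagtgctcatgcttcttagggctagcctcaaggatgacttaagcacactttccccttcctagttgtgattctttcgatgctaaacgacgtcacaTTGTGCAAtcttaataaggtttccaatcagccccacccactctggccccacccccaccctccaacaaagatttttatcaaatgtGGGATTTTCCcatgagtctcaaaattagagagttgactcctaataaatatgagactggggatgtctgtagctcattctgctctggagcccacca
Socs3: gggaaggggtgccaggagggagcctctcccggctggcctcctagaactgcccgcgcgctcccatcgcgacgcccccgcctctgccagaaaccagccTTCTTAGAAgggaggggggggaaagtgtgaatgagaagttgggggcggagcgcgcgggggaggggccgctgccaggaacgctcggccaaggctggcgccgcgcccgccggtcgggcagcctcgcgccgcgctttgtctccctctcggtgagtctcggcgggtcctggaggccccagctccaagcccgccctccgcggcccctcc
Of the 11 windows, only that of Socs3 held TTCNNNGAA, against 8.3% of all windows, and none held the stricter TTCCNGGAA (1.15% of all windows). The bases between the Socs3 window and the start of its coding transcript were not searched, so these results do not cover sites there. A match describes these letters and is not evidence of binding.

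In quadriceps, 7 of the 9 genes were called between KPC and no tumor. Il6ra, Osmr, Stat3 and Jak1 were higher, and Lif, Lifr and Jak2 were lower. Of all 12831 genes 55.7% were called, 26.7% higher and 29% lower, so a call by itself does not set these genes apart. No gene of the 12831 was called between KPC IL6KO and no tumor by the quasi-likelihood test. For that comparison the likelihood ratio test called 95 (25 higher, 70 lower) and DESeq2 called 96 (30 higher, 66 lower). Groups did not overlap between KPC and no tumor for 8 of the 9 genes, 5 higher and 3 lower, compared with 65.3% of all genes (32.3% higher, 33% lower). At an unadjusted p under 0.05 were 9 of 9, compared with 70.3%.

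**Figure D1:**
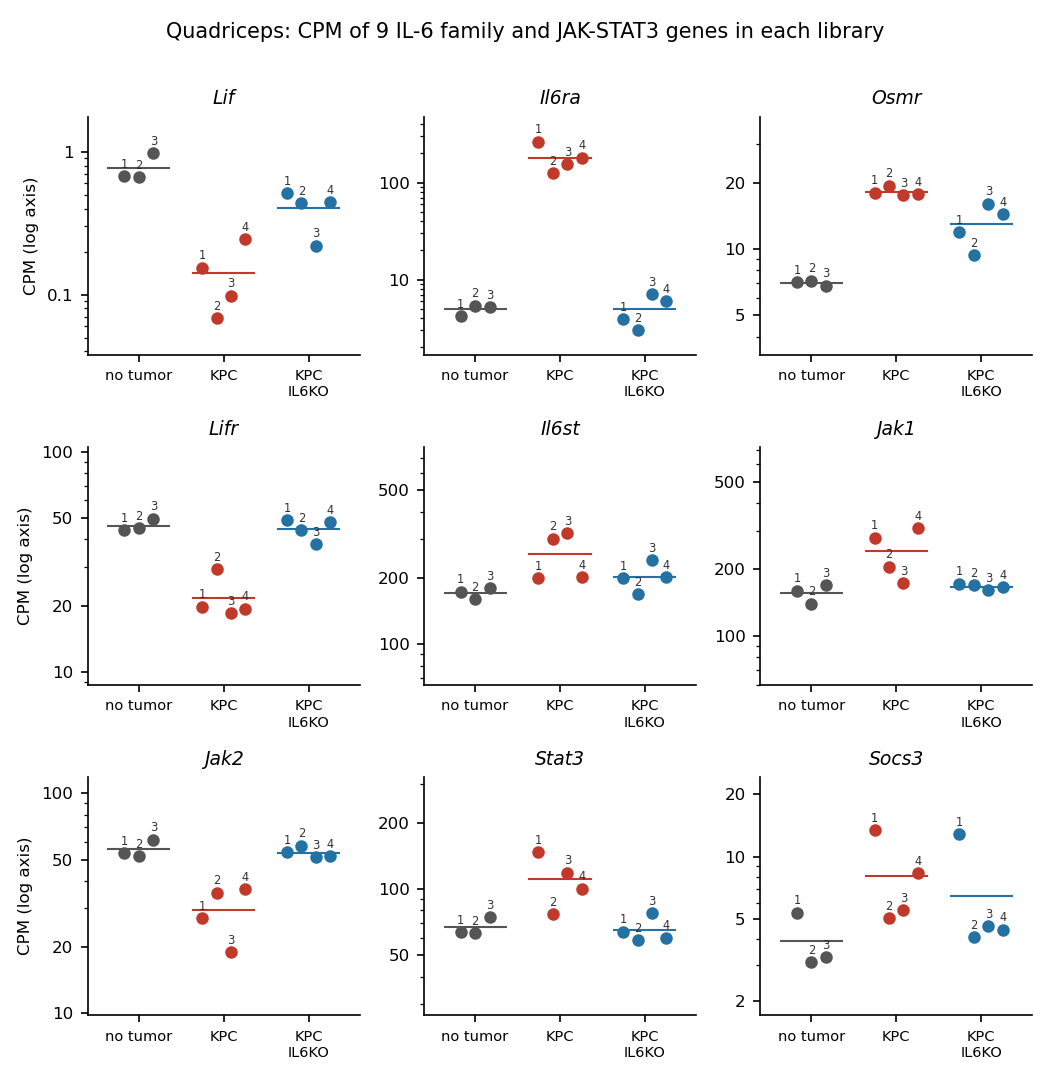
CPM on a log axis of 9 genes in each quadriceps library, by group. Points carry the replicate number and horizontal lines mark group means (n = 3, 4 and 4). Il6ra of the 4 KPC libraries lies at 125 to 264 CPM, above all other libraries, whereas Lif, Lifr and Jak2 lie lower in KPC than in no tumor.

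Among ligands, only Lif was measured in quadriceps, close to the limit of detection. Lif (ENSMUSG00000034394.14, chr11:4257557-4272514) encodes a cytokine that supports muscle satellite cells and macrophage responses. It had 39, 34 and 19 counts in no tumor (0.675, 0.666 and 0.973 CPM), 10, 4, 6 and 13 counts in KPC (0.154, 0.0685, 0.0982 and 0.245 CPM) and 26, 25, 14 and 26 counts in KPC IL6KO (0.512, 0.438, 0.220 and 0.446 CPM). The 3 groups were ordered no tumor, KPC IL6KO and KPC, with KPC IL6KO 3 inside the range of KPC and no overlap of either tumor group with no tumor. The fall in KPC was 5.32-fold (log2 -2.41, SE 0.42, FDR 0.000386), and the log2 difference of KPC IL6KO from no tumor was -0.91 (SE 0.39, FDR 0.671). Between the tumor groups Lif was 2.84-fold lower in KPC (log2 -1.51, SE 0.40, FDR 0.00591).

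The receptor chains moved in opposite directions in quadriceps. Il6ra (ENSMUSG00000027947.11, chr3:89864059-89913196), the ligand-binding IL-6 receptor, was at 4.19, 5.37 and 5.23 CPM in no tumor. It was at 264, 125, 155 and 181 in KPC and at 3.92, 3.03, 7.10 and 5.99 CPM in KPC IL6KO. The lowest KPC library was thus far above the highest of the other 7, whereas KPC IL6KO spread around no tumor. The rise was 36.9-fold against no tumor (log2 5.21, SE 0.37, FDR 1.37e-06) and 36.1-fold against KPC IL6KO (log2 5.18, SE 0.32, FDR 6.72e-07). The log2 difference of KPC IL6KO from no tumor was 0.03, with a 95% interval of -0.64 to 0.70. An antisense gene, Gm42809, covers 242 exonic bases of Il6ra, and the strand setting of the counting is not given in the sources used here.

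Osmr (ENSMUSG00000022146.12, chr15:6813577-6874969), the oncostatin M receptor chain, was at 7.05, 7.19 and 6.81 CPM in no tumor. The KPC libraries held 18.1, 19.4, 17.6 and 17.7 CPM, and the KPC IL6KO libraries 11.9, 9.40, 16.1 and 14.4 CPM. All 4 libraries of each tumor group were above all 3 of no tumor, and all KPC libraries were above all KPC IL6KO libraries. Osmr rose 2.59-fold in KPC (log2 1.37, SE 0.17, FDR 2.82e-05). In KPC IL6KO the log2 difference from no tumor was 0.88 (SE 0.16, unadjusted p = 0.000183, FDR 0.209 in the edgeR quasi-likelihood test). Between the tumor groups it was 0.49 (SE 0.15, FDR 0.0109), under the fold threshold. Osmr passed this threshold without KPC IL6KO 3 (0.61).

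Lifr (ENSMUSG00000054263.12, chr15:7090614-7197489), the LIF receptor chain, was at 43.8, 45.0 and 49.6 CPM in no tumor, 19.8, 29.2, 18.4 and 19.3 in KPC, and 48.7, 43.8, 38.1 and 47.8 CPM in KPC IL6KO. KPC lay below both other groups without overlap, and KPC 2 was the highest of the KPC libraries. Lifr fell 2.13-fold against no tumor (log2 -1.09, SE 0.16, FDR 0.000103) and was 2.06-fold lower than in KPC IL6KO (log2 -1.04, SE 0.15, FDR 8.73e-05). Thus Lif and the chain that binds it were both lower in KPC.

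Il6st (ENSMUSG00000021756.12, chr13:112464070-112510086), the chain that all of these cytokines share, was at 173, 160 and 179 CPM in no tumor. It was at 199, 302, 320 and 202 in KPC and at 200, 169, 240 and 202 CPM in KPC IL6KO. KPC was above no tumor in 4 of 4 libraries, and KPC IL6KO overlapped both groups. The fold change in KPC was 1.495 (log2 0.58, SE 0.19, FDR 0.0154), just under the threshold. It passed without any 1 of no tumor 1 (log2 0.62), no tumor 3 (0.62), KPC 1 (0.68) and KPC 4 (0.68). Without KPC 3 the log2 difference was 0.45, and the FDR ran from 0.00628 to 0.0571 as each library was left out.

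Because Il6st is shared, each partner chain was set against it within a library on CPM per kilobase of exon, a ratio that does not depend on library scaling. Per 100 Il6st, the median of Il6ra was 3.75 (range 3.11 to 4.30) in no tumor, 88.9 (53.03 to 171) in KPC and 3.16 (2.31 to 3.81) in KPC IL6KO. The median of Lifr was 28.5 (26.1 to 28.9), 9.93 (5.93 to 10.3) and 24.8 (16.3 to 26.7) in the same order, and that of Osmr was 3.73 (3.49 to 4.11), 6.97 (5.03 to 8.32) and 5.80 (5.10 to 6.54). In no tumor and KPC IL6KO quadriceps Lifr was the most abundant of the 3 partner chains in every library, and in KPC it was Il6ra.

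**Figure D2:**
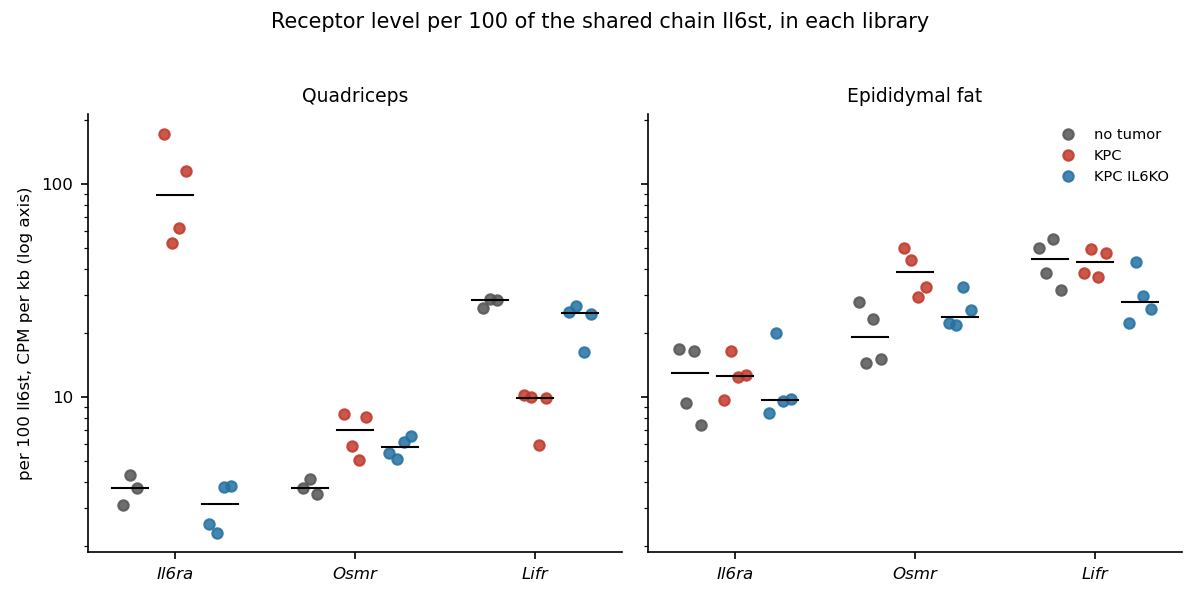
Il6ra, Osmr and Lifr per 100 Il6st in each library, on CPM per kilobase of exon and a log axis, with black lines at group medians. In quadriceps the KPC median of Il6ra is 88.9 against 3.75 in no tumor, and that of Lifr is 9.93 against 28.5, whereas in fat the ranges of the 3 groups overlap for Il6ra and for Lifr.

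The kinases also differed in opposite directions. Jak1 (ENSMUSG00000028530.14, chr4:101152367-101265282), the main kinase of the IL-6 receptor complex, was at 160, 140 and 170 CPM in no tumor, 279, 206, 173 and 307 in KPC, and 172, 170, 161 and 166 CPM in KPC IL6KO. KPC was higher in all 4 libraries, although KPC 3 was close to the other groups. Jak1 rose 1.54-fold (log2 0.62, SE 0.18, FDR 0.00789). The call was lost without no tumor 2 (log2 0.55), KPC 1 (0.55) or KPC 4 (0.49), each under the fold threshold. Against KPC IL6KO the difference was 0.53 (FDR 0.0117), and passed without KPC 2 (0.60) or KPC 3 (0.66).

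Jak2 (ENSMUSG00000024789.13, chr19:29251828-29313080), a kinase that also serves growth hormone and erythropoietin receptors, was at 53.4, 51.9 and 61.4 CPM in no tumor. It was at 27.03, 35.3, 18.9 and 36.7 in KPC and at 54.1, 57.8, 51.4 and 51.9 CPM in KPC IL6KO. All KPC libraries were below all others. Jak2 fell 1.88-fold against no tumor (log2 -0.91, SE 0.19, FDR 0.00112) and was 1.82-fold lower than in KPC IL6KO (log2 -0.87, SE 0.18, FDR 0.000987).

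Stat3 (ENSMUSG00000004040.16, chr11:100885098-100939540), the transcription factor that IL-6 activates, was at 63.6, 63.0 and 74.2 CPM in no tumor, 147, 76.9, 119 and 100 in KPC, and 63.9, 58.7, 77.8 and 60.1 CPM in KPC IL6KO. KPC was above no tumor in 4 of 4 libraries, with KPC 2 just above the highest no tumor library and under KPC IL6KO 3. Stat3 rose 1.65-fold (log2 0.72, SE 0.19, FDR 0.00557) and was 1.70-fold higher than in KPC IL6KO (log2 0.76, SE 0.18, FDR 0.00228). Without KPC 1 the first difference was 0.56 (FDR 0.0124), under the fold threshold. These are transcript levels, and phosphorylation of STAT3 was not measured in these libraries.

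Socs3 (ENSMUSG00000053113.3, chr11:117966079-117970047), the feedback inhibitor, was low and spread in quadriceps. It was at 5.37, 3.10 and 3.28 CPM in no tumor, 13.4, 5.03, 5.53 and 8.30 in KPC, and 12.8, 4.09, 4.63 and 4.44 CPM in KPC IL6KO. KPC 2 lay under no tumor 1, and KPC IL6KO 1 was near the highest KPC library whereas its other 3 libraries were not. The log2 difference from no tumor was 1.03 in KPC (SE 0.46, FDR 0.0673) and 0.71 in KPC IL6KO (SE 0.46, FDR 0.914), and the difference between the tumor groups was 0.32 with a 95% interval of -0.59 to 1.22. Socs3 passed against no tumor under the likelihood ratio test (FDR 0.0406), DESeq2 (FDR 0.0219) and a fit of only these groups (FDR 0.0377), and without KPC 2 (1.20, FDR 0.0448) or KPC IL6KO 1 (1.03, FDR 0.0202). Without KPC 1 the log2 difference from no tumor was 0.67, and its FDR ran up to 0.202 as each library was left out. Without KPC IL6KO 1 Socs3 also passed between the tumor groups (0.88, FDR 0.0399), and without KPC 1 that difference was -0.04.

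Between KPC IL6KO and no tumor, 0 of the 9 genes were called by the edgeR quasi-likelihood test in quadriceps (0% of all genes). At an unadjusted p under 0.05 there were 2 (Osmr and Lif), compared with 6.91% of all genes. The edgeR likelihood ratio test and DESeq2 each called 1, Osmr. Groups did not overlap for Osmr (higher) and Lif (lower), 2 of the 9 genes, against 15.5% of all genes (7.54% higher, 8.01% lower). The 95% intervals of the log2 difference were -0.45 to 0.37 for Stat3, -0.40 to 0.30 for Lifr, -0.46 to 0.37 for Jak2 and -0.29 to 0.47 for Jak1. Between KPC and KPC IL6KO 5 of the 9 were called, Il6ra and Stat3 higher and Lif, Lifr and Jak2 lower in KPC, compared with 53.6% of all genes (26.4% higher, 27.3% lower). Groups did not overlap for 3 that were higher (Il6ra, Osmr and Jak1; 31.2% of all genes) and for 2 that were lower (Lifr and Jak2; 30.8%), or 62% of all genes either way. At an unadjusted p under 0.05 were 7 of 9, compared with 70.9%.

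Some cell type markers in quadriceps differed between KPC and no tumor, and others overlapped. The summed level of 5 fibroblast markers was 1194 to 1315 CPM in no tumor, 174 to 288 in KPC and 617 to 976 CPM in KPC IL6KO. The 6 muscle fiber markers summed to 145635 to 181733 CPM, 113116 to 131007 CPM and 166991 to 182593 CPM in the same order. Neutrophil markers, of which 5 of 11 were tested and Ly6g was not, summed to 2.98 to 4.51 CPM, 5.65 to 22.6 CPM and 4.55 to 8.04 CPM. All 8 macrophage markers were present, at 79.6 to 120 CPM, 34.4 to 155 CPM and 78.5 to 134 CPM. The 5 endothelial markers summed to 215 to 293, 184 to 314 and 256 to 332 CPM. The 6 adipocyte markers summed to 344 to 1552, 148 to 746 and 164 to 359 CPM. Of 5 hepatocyte markers 1 was tested, at 0.398 to 1.16, 0.655 to 97.3 and 0.0351 to 0.236 CPM, with KPC 4 at 97.3 CPM. The part of these cells in the gene differences was not tested, and in bulk tissue fewer cells of a type and less RNA per cell cannot be told apart.

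In fat, Il6 and Socs3 were the genes that differed most from no tumor, in both tumor groups, and none of the 10 genes was called by the edgeR quasi-likelihood test in any comparison, nor was any of all 16962 genes (0%). At an unadjusted p under 0.05 there were 5 of 10 in KPC (Socs3, Il6, Osmr, Stat3 and Lif) and the same 5 in KPC IL6KO, compared with 12.2% and 9.34% of all genes. The likelihood ratio test and DESeq2 each called 2 in KPC and 2 in KPC IL6KO, Il6 and Socs3, all higher. The 2 comparisons share the no tumor libraries.

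**Figure D3:**
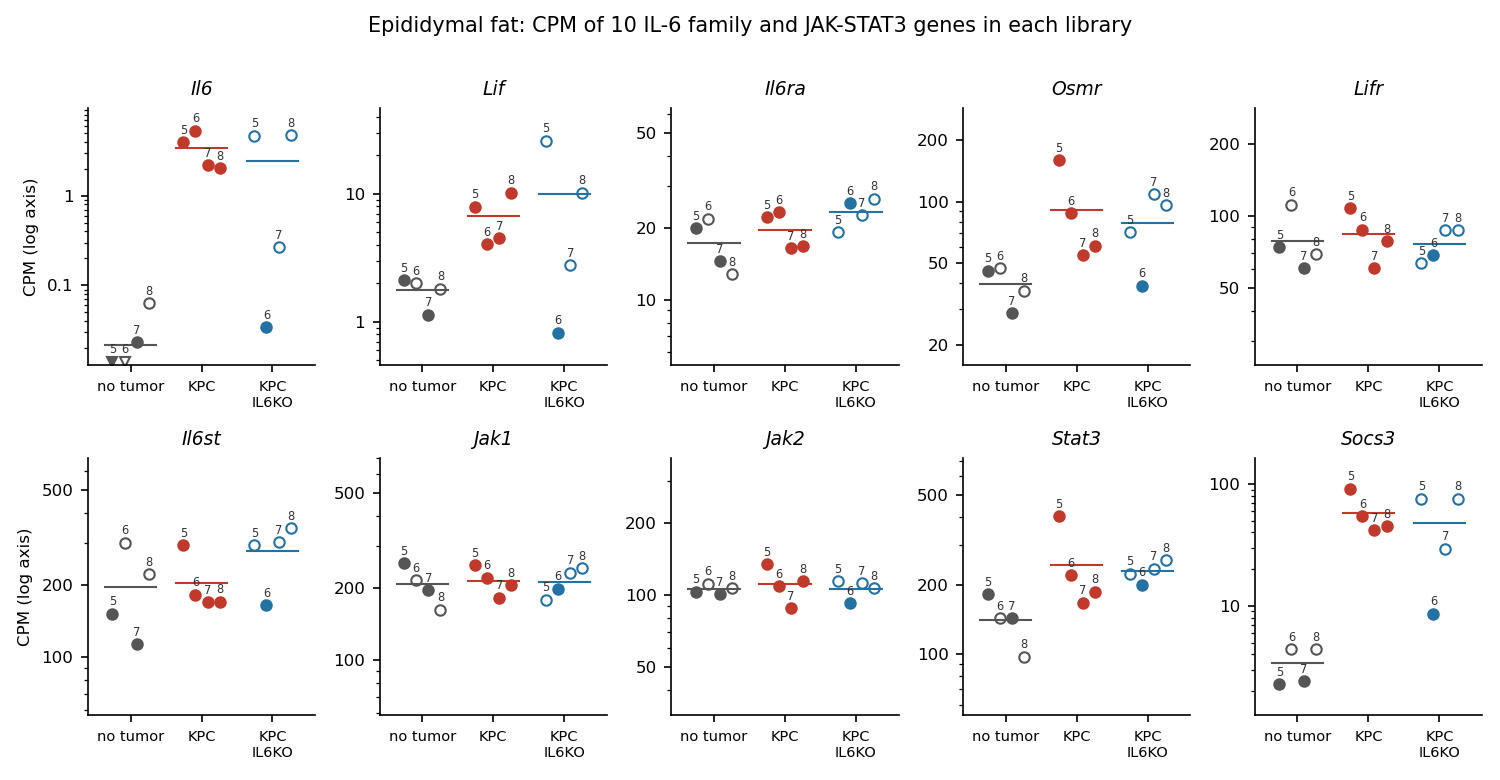
CPM on a log axis of 10 genes in each fat library, by group, with replicate numbers and lines at group means (n = 4 each). Filled symbols are libraries with Gpx5 above 1000 CPM, open symbols those below, and triangles at the base are libraries with 0 counts. Socs3 is at 2.29 to 4.43 CPM in no tumor and at 41.9 to 91.2 CPM in KPC, and KPC IL6KO 6 is the lowest of its group for Il6, Lif, Osmr and Socs3.

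Il6 (ENSMUSG00000025746.11, chr5:30013114-30019981), whose promoter is shown above, had 0, 0, 1 and 4 counts in no tumor fat. It had 136, 185, 65 and 62 counts in KPC (3.97, 5.30, 2.19 and 2.02 CPM). KPC IL6KO held 190, 1, 9 and 156 counts (4.66, 0.0343, 0.267 and 4.77 CPM). All KPC libraries were above no tumor, whereas KPC IL6KO fell into 2 libraries at the level of KPC, 1 between and 1 within the range of no tumor. Over pooled counts Il6 was 110-fold higher in KPC than in no tumor (448 against 5 counts, 95% interval 46.9 to 342) and 83.4-fold higher in KPC IL6KO (356 against 5, 35.4 to 258), intervals that cover counting error only. Of the 5 no tumor counts 4 came from no tumor 8. The fitted log2 difference was 6.82 in KPC and 6.35 in KPC IL6KO, and 7.97 and 7.50 without that library. The fitted test gave an FDR of 0.191 in KPC and 0.385 in KPC IL6KO, and of 0.0613 and 0.0547 without KPC IL6KO 6. Between the tumor groups the log2 difference was 0.47, with a 95% interval of -1.99 to 2.92.

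Lif was at 2.13, 2.01, 1.14 and 1.82 CPM in no tumor fat, 7.94, 4.04, 4.51 and 10.2 in KPC, and 26.2, 0.823, 2.76 and 10.2 CPM in KPC IL6KO. KPC was higher than no tumor in 4 of 4 libraries and KPC IL6KO in 3 of 4. The log2 difference was 1.91 in KPC (SE 0.83, FDR 0.388) and 2.50 in KPC IL6KO (SE 0.84, FDR 0.424). The latter was 1.38 without KPC IL6KO 5 and 2.88 (FDR 0.0766) without KPC IL6KO 6.

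Among receptors, Osmr was at 46.0, 47.5, 28.6 and 36.8 CPM in no tumor fat, 160, 87.7, 54.6 and 61.0 in KPC, and 71.0, 38.9, 109 and 96.3 CPM in KPC IL6KO. KPC did not overlap no tumor, and KPC IL6KO 6 was the only library of its group within the range of no tumor. The log2 difference was 1.19 in KPC (SE 0.39, FDR 0.284) and 0.99 in KPC IL6KO (SE 0.39, FDR 0.482), or 1.21 (FDR 0.119) without KPC IL6KO 6.

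Il6ra stayed within a narrow range in fat, at 19.9, 21.8, 14.4 and 12.8 CPM in no tumor, 22.1, 23.2, 16.4 and 16.7 in KPC and 19.2, 25.4, 22.5 and 26.4 CPM in KPC IL6KO. The groups overlapped, with a log2 difference of 0.19 (95% interval -0.29 to 0.67) in KPC and 0.44 (-0.04 to 0.92) in KPC IL6KO. Il6st was at 152, 300, 113 and 222 CPM in no tumor, 293, 182, 170 and 170 in KPC and 294, 164, 303 and 346 CPM in KPC IL6KO, and Lifr was at 60.3 to 111, 60.2 to 108 and 63.4 to 87.1 CPM. Neither separated the groups: the log2 difference in KPC was 0.05 for Il6st (-0.69 to 0.79) and 0.09 for Lifr (-0.42 to 0.59).

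Stat3 was at 182, 143, 143 and 97.2 CPM in no tumor fat, 403, 221, 168 and 187 in KPC, and 225, 202, 237 and 257 CPM in KPC IL6KO. All KPC IL6KO libraries were above all no tumor libraries, and KPC 7 lay within the range of no tumor. The log2 difference was 0.79 in KPC (SE 0.28, FDR 0.324) and 0.70 in KPC IL6KO (SE 0.28, FDR 0.492), or 0.76 (FDR 0.213) without KPC IL6KO 6. The kinases overlapped between groups, with Jak1 at 162 to 255, 182 to 250 and 179 to 242 CPM in no tumor, KPC and KPC IL6KO, and Jak2 at 101 to 111, 87.9 to 134 and 92.5 to 114 CPM. Their log2 differences in KPC were 0.05 (95% interval -0.35 to 0.45) and 0.08 (-0.24 to 0.39).

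Socs3 was at 2.29, 4.43, 2.42 and 4.41 CPM in no tumor fat, 91.2, 54.1, 41.9 and 45.1 in KPC, and 75.8, 8.61, 29.4 and 75.8 CPM in KPC IL6KO. Both tumor groups lay wholly above no tumor, and KPC IL6KO 6 was the lowest tumor library. The log2 difference was 4.10 in KPC (SE 0.64, FDR 0.0763) and 3.80 in KPC IL6KO (SE 0.63, FDR 0.325). Without KPC IL6KO 6, which also shares in the estimate of the spread, Socs3 was called in both, at 4.10 (FDR 0.019) and 4.15 (FDR 0.0185). Between the tumor groups the log2 difference was 0.29, with a 95% interval of -0.94 to 1.52. Among libraries with Gpx5 above 1000 CPM only, 2 of no tumor and 4 of KPC, Socs3 and Il6 were both called (log2 4.70, FDR 0.0217, and 7.61, FDR 0.0308).

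Groups did not overlap for 4 of 10 genes in KPC against no tumor fat (Socs3, Il6, Osmr and Lif, all higher), compared with 6.52% of all genes higher and 4.39% lower, 10.9% in all. In KPC IL6KO they did not overlap for 2 of 10 (Socs3 and Stat3, both higher), compared with 1.52% higher and 0.489% lower, 2.01% in all. Between KPC and KPC IL6KO 0 of the 10 were called by the quasi-likelihood test, the likelihood ratio test or DESeq2, and 0 were under an unadjusted p of 0.05, compared with 6.26% of all genes. The tumor groups overlapped for 10 of 10, and 0.637% of all genes were separately higher and 3.69% lower in KPC (4.33% in all). All 8 macrophage markers were present in fat and summed to 193 to 682 CPM in no tumor, 798 to 1343 in KPC and 341 to 1850 CPM in KPC IL6KO, with KPC IL6KO 6 at 341. Epididymis markers summed to 13498 to 88684 CPM, 39697 to 65664 CPM and 752 to 91262 CPM, with KPC IL6KO 6 at the upper end. Adipocyte markers summed to 1039 to 19166, 1681 to 8779 and 2820 to 11348 CPM, fibroblast markers to 1063 to 3275, 2713 to 5743 and 1500 to 5047 CPM, and neutrophil markers (8 of 11 tested, Ly6g not) to 10.9 to 774, 46.5 to 167 and 8.92 to 408 CPM. The neutrophil sum does not stand for each gene of its list. S100a9, which is in it, averaged 0.191 CPM in no tumor, 9.10 in KPC and 5.74 CPM in KPC IL6KO. Pancreas and epithelium markers (6 of 8 tested) summed to 341 to 754 CPM in no tumor, 763 to 1733 in KPC and 538 to 2004 in KPC IL6KO, and skeletal muscle fiber markers to 8.55 to 266, 2.16 to 5.16 and 93.6 to 2390 CPM. The part of these cells in the gene differences was not tested, apart from a fit with the epididymis share as a covariate. In that fit Il6 and Socs3 were called in KPC (log2 7.34, FDR 0.0352, and 4.36, FDR 0.00548), and their log2 differences in KPC IL6KO were 4.66 (FDR 1) and 2.87 (FDR 0.39), with Lif at 0.51 (FDR 1). Between the tumor groups they were then 2.69 for Il6 (FDR 0.751) and 1.498 for Socs3 (FDR 0.5). All 4 KPC libraries but only 1 of 4 KPC IL6KO libraries had Gpx5 above 1000 CPM.

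The change in KPC was then compared between the tissues in a fit over the 12599 genes tested in both. The difference of log2 fold changes, quadriceps minus fat, passed an FDR of 0.05 for 5 of 9 genes, compared with 38.6% of all genes, and had an unadjusted p under 0.05 for the same 5, compared with 47.6%. Il6ra rose in quadriceps and not in fat (difference 4.90, SE 0.39, FDR 1.17e-07). Lif differed most in the opposite direction (-4.45, SE 1.01, FDR 0.00207), with a fall in quadriceps and higher values in fat. Socs3 was higher in fat by far more than in quadriceps (-3.16, SE 0.79, FDR 0.00383). Lifr (-1.28, SE 0.29, FDR 0.00196) and Jak2 (-1.09, SE 0.24, FDR 0.0014) were lower in KPC quadriceps, with differences near 0 in fat. For Osmr (0.07, SE 0.44) and Stat3 (-0.19, SE 0.34) the differences were smaller than their standard errors. Jak1 differed by 0.45 (FDR 0.139), and by 0.58 (FDR 0.0408) without quadriceps KPC 3.

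In KPC IL6KO 0 of 9 differences between tissues passed by edgeR quasi-likelihood (0% of all genes), and 3 had an unadjusted p under 0.05 (Socs3, Lif and Stat3), compared with 7.96% of all genes. The likelihood ratio test called 1, Socs3. Without fat KPC IL6KO 6, Socs3 (-3.39, FDR 0.0246) and Lif (-3.76, FDR 0.0291) passed.

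**Figure D4:**
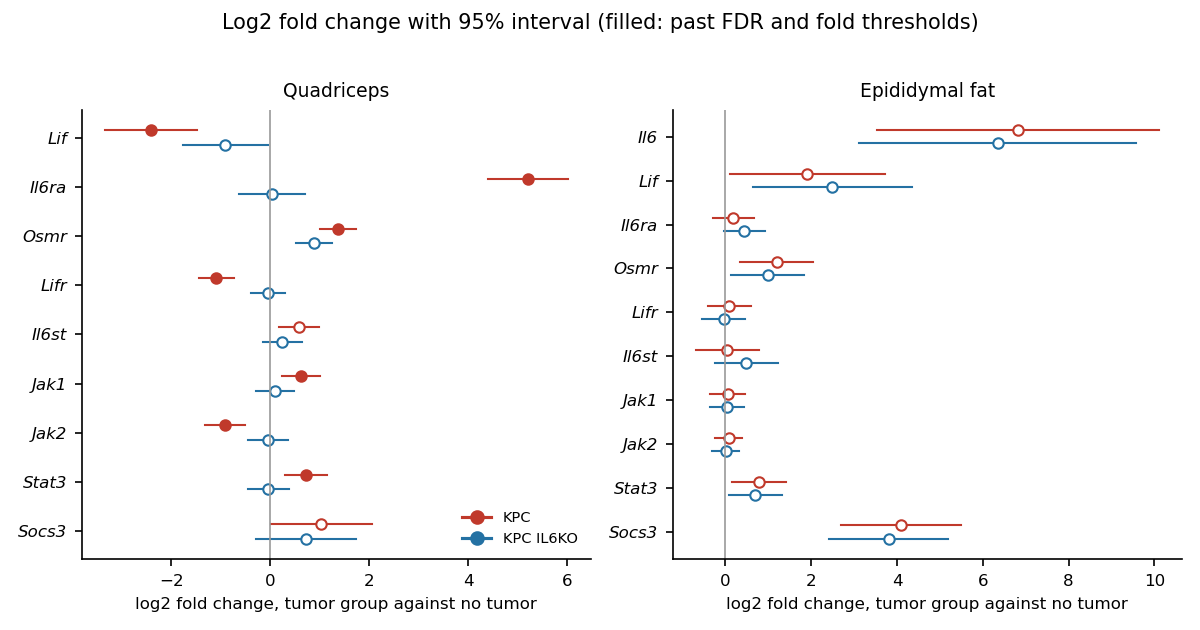
Log2 fold change of each gene against no tumor with its 95% interval, in KPC (red) and KPC IL6KO (blue), for quadriceps and fat. Filled points passed both the FDR and the fold threshold. In quadriceps Il6ra is at 5.21 in KPC and 0.03 in KPC IL6KO, and in fat Socs3 is at 4.10 and 3.80. With the epididymis share as a covariate, Socs3 in fat differed between the tumor groups by log2 1.498. That difference was not called (FDR 0.5, quasi-likelihood test).

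Within a group the genes can be ordered by CPM per kilobase of exon, which compares levels between genes. In no tumor quadriceps the order was Jak1 (21.7 ± 2.12, SD, n = 3), Il6st (15.4 ± 0.855), Jak2 (11.0 ± 1.02), Stat3 (7.02 ± 0.665), Lifr (4.28 ± 0.285), Socs3 (1.35 ± 0.437), Osmr (0.579 ± 0.0158), Il6ra (0.570 ± 0.0744) and Lif (0.177 ± 0.0402). Osmr and Il6ra did not differ beyond their spread. In KPC quadriceps Il6ra was at 21.0 ± 6.94 (SD, n = 4), beside Il6st at 23.02 ± 5.79, and so moved from the second lowest place to among the highest 3. In no tumor fat Jak1 (28.6 ± 5.37, SD, n = 4), Jak2 (21.0 ± 0.897), Il6st (17.7 ± 7.45) and Stat3 (14.9 ± 3.65) led, with Socs3 at 1.17 ± 0.413 and Il6 at 0.00890 ± 0.0123. In KPC fat Socs3 was at 20.1 ± 7.85, close to Il6st (18.4 ± 5.39).

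The wider pathway in quadriceps was described by 5 lists of genes, whose counts in KPC against no tumor stand beside 26.7% of all genes higher and 29% lower. The lists were chosen with earlier results of these data known, so their counts and medians describe these data and are not an independent test. Of 25 tested genes known as STAT3 targets, 15 rose, 3 fell and 7 were not called in KPC against no tumor (median log2 1.09, all genes -0.03). Lcn2, an iron-binding acute phase protein, rose from 0.712 ± 0.0778 to 54.4 ± 38.7 CPM (log2 6.27, SE 0.91, FDR 9.73e-05). Cebpd, a transcription factor of the acute phase response, rose from 31.0 ± 12.4 to 467 ± 149 CPM (log2 3.92, SE 0.53, FDR 6.46e-05). Ccnd1, the cell cycle regulator cyclin D1, fell from 10.6 ± 1.71 to 0.680 ± 0.213 CPM (log2 -3.95, SE 0.32, FDR 2.32e-06). Vegfa, the most abundant of the list, differed by -0.30 (FDR 0.093).

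Of 16 genes for feedback inhibitors and phosphatases, 6 rose, 3 fell and 7 were not called, Socs3 among the latter (median log2 0.40). Socs2, best known as an inhibitor of growth hormone signaling, rose by 2.34 (SE 0.63), Pias4, a SUMO ligase of the PIAS family, by 1.86 (SE 0.17), and Ptpn2, a phosphatase that acts on STATs, by 1.51 (SE 0.18). Ptpn11, the phosphatase SHP2 that binds the shared receptor chain, rose by 0.99 (SE 0.18). Of 10 kinases and STATs, 3 rose and 5 fell (median log2 -0.41). Stat2 (-1.37, SE 0.25), which serves interferon receptors, and the kinase Tyk2 (-0.87, SE 0.15) fell, as did Jak2, whereas Stat5b rose by 0.78 (SE 0.25) and Stat3 rose.

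Of 9 receptors and sheddases 3 rose and 4 fell (median log2 -0.18). Cntfr, the receptor for ciliary neurotrophic factor, fell by 2.94 on the log2 scale (SE 0.30), Il27ra fell by 1.53 (SE 0.56), and Adam17, a protease that sheds the IL-6 receptor from the surface, fell by 1.24 (SE 0.16). Adam10, the other sheddase of the list, was called higher, so the sheddases moved in opposite directions. Il11ra1 differed by -0.18 (FDR 0.169). Of 4 IL-6 family cytokines tested, 1 rose and 2 fell. Ctf1, which encodes cardiotrophin, rose by 0.61 (SE 0.15), and Lif was among those that fell.

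Between KPC IL6KO and no tumor quadriceps, 0 genes of any of the 5 lists were called by the edgeR quasi-likelihood test. The counts at an unadjusted p under 0.05 were 9 of 25 STAT3 targets, 1 of 9 receptors, 1 of 10 kinases and STATs, 1 of 4 cytokines and 0 of 16 feedback genes, beside 6.91% of all genes. DESeq2 called 2 targets and 1 receptor, and the likelihood ratio test 1 and 1. Between KPC and KPC IL6KO, where 26.4% of all genes were higher and 27.3% lower, 16 STAT3 targets were higher and 2 lower in KPC, with Lcn2 at 5.23 (SE 0.73), Cebpd at 4.17 (SE 0.48) and Serpina3n, an acute phase protease inhibitor, at 3.91 (SE 0.54). Feedback genes were 6 higher and 4 lower, with Socs1, an inhibitor of interferon signaling, at -3.45 (SE 0.85), Pias4 at 1.64 (SE 0.15), Ptpn2 at 1.55 (SE 0.16) and Ptpn11 at 0.94 (SE 0.16). Socs1 was close to the limit of detection in KPC (0.103 to 0.226 CPM) and was not called there against no tumor (FDR 0.0681, quasi-likelihood test). Of the kinases and STATs 1 was higher and 6 lower, with Stat2 at -1.47 (SE 0.23) and Tyk2 at -0.95 (SE 0.14). Of the receptors 2 were higher and 4 lower, with Cntfr at -2.45 (SE 0.28), Il27ra at -2.15 (SE 0.51) and Adam17 at -1.20 (SE 0.15). Of the cytokines 0 were higher and 2 lower, Lif among them.

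**Figure D5:**
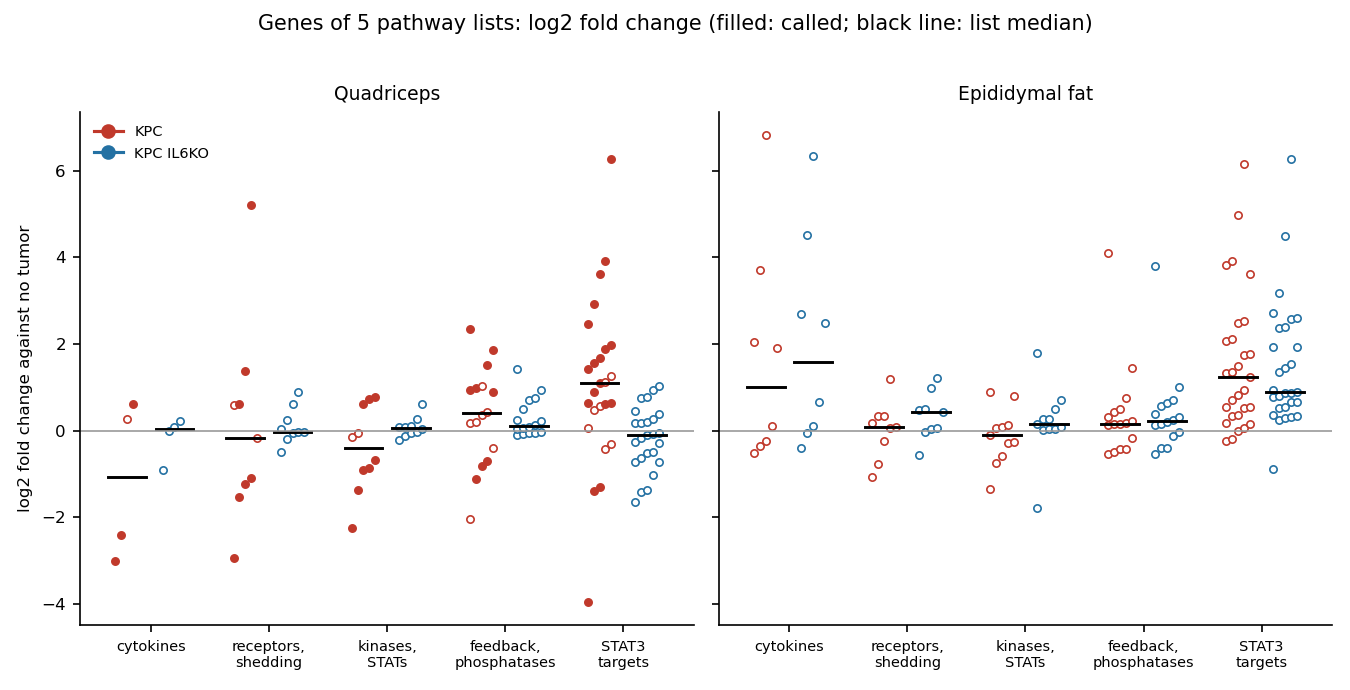
Log2 fold change against no tumor of each gene in 5 pathway lists, in KPC (red) and KPC IL6KO (blue), for quadriceps and fat. Filled points were called and black lines mark list medians. In quadriceps the STAT3 target list has a median of 1.09 in KPC and -0.09 in KPC IL6KO, and in fat 1.24 and 0.89 with no gene called.

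In fat 0 genes of any list were called by the edgeR quasi-likelihood test in KPC or KPC IL6KO. At an unadjusted p under 0.05 there were 12 and 13 of 29 STAT3 targets, 4 and 4 of 8 cytokines, 5 and 3 of 16 feedback genes, 3 and 2 of 11 kinases and STATs and 2 and 2 of 9 receptors, beside 12.2% and 9.34% of all genes. DESeq2 called 7 and 6 targets, 1 and 3 cytokines, 2 and 1 feedback genes, 0 and 1 kinases or STATs and 0 receptors, all higher, beside 585 and 286 of all 16962 genes in either direction. The list medians were 1.24 and 0.89 for STAT3 targets and 1.01 and 1.58 for cytokines, beside -0.10 and -0.03 over all genes. Hp, which encodes haptoglobin and was the most abundant of the targets, was at 3757 CPM in KPC, 3991 CPM in KPC IL6KO and 654 CPM in no tumor (log2 2.52 and 2.61, FDR 0.233 and 0.385). Clcf1, the most abundant cytokine of the family, was at 15.8, 24.3 and 3.80 CPM (log2 2.05 and 2.68, FDR 0.359 and 0.397). The most abundant genes of the other lists differed less in KPC, with Ptpn11 at -0.54 (FDR 0.337), Stat6 at 0.13 (FDR 0.835) and Adam10, another sheddase, at 0.35 (FDR 0.739).

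Genes whose pattern over libraries was closest were found by the root mean square (RMS) difference of log2 CPM after centering each gene. For Il6ra, whose own RMS spread over the 11 quadriceps libraries was 2.45, the closest of 10982 genes were Fam134b (0.29), Slc39a14 (0.34), Trim63 (0.37), 2410006H16Rik (0.41) and Cdkn1a (0.47). Trim63, a muscle ubiquitin ligase of atrophy, averaged 259 CPM in no tumor, 8534 in KPC and 403 CPM in KPC IL6KO. For Socs3 in quadriceps the closest were Blm, Bmpr1b, Gm13889, Eya4 and Tra2b (0.40 to 0.41, against its own 0.63), so no gene came close to it.

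For Il6 in the 12 fat libraries the closest of 15207 genes were Gdf6 (0.39), Wisp1 (0.41), Tnfrsf9 (0.49), Bcl2a1b (0.49) and Rpp25 (0.49), against its own 1.49. For Socs3 in fat the closest of 14540 genes were S100a9 (0.40), Ms4a6d (0.50), Ms4a8a (0.53), Rgs16 (0.53) and Adamts4 (0.54), against its own 1.88. S100a9, a calcium-binding protein abundant in neutrophils and monocytes, averaged 0.191 CPM in no tumor, 9.10 in KPC and 5.74 CPM in KPC IL6KO fat. The summed neutrophil markers, of which S100a9 is 1, did not follow this pattern. The points of each pattern share library, depth and tissue composition.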

How the data were processed

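RNA-seq had been carried out on quadriceps and epididymal fat, 1 library per mouse. The authors aligned reads to mm10 with STAR and deposited raw read counts per gene from uniquely mapped reads, with featureCounts 1.5.1 and edgeR 3.12.1 named in the processing notes. Libraries were strand-specific, but the strand setting of the counting is not given in the sources used here, and the library kit is named differently in the methods and the labels. The authors had removed 1 no tumor muscle sample, which was not analysed here. Genes with few counts are left out of the tables by a rule that is not stated.

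Counts were analysed with edgeR 4.0.16 in R 4.3.3 (limma 3.58.1, DESeq2 1.42.0, Python 3.11.15 and matplotlib 3.10.9 for figures). The 3 groups of a tissue entered 1 quasi-likelihood fit with TMM scaling, filterByExpr (which removed no gene) and Benjamini-Hochberg adjustment over all genes of the tissue. Standard errors are the absolute log2 fold change divided by the square root of F, and 95% intervals use the t distribution on the moderated degrees of freedom. Tissues were compared by an interaction term over all 23 libraries. Thresholds and TMM follow the study, which does not name the edgeR test that it used. In fat the likelihood ratio test gave 268 genes higher and 145 lower in KPC, and 209 higher in KPC IL6KO. These are the counts that the study reported for fat. The fits were tested on simulated counts with known changes. Alternatives were other tests, scalings, filters, sample sets, a replicate block and leaving out each library. Levels per kilobase use the union of GENCODE vM21 exons (GRCm38, the same assembly as mm10). For likeness, 0.5 CPM was added before the log and genes had a mean log2 CPM of at least 1, or at least that of Il6.

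Named were all 10 genes, and from each pathway list and comparison the called genes with the 3 largest changes and the most abundant gene. Some items that this rule names are not reported here, although the list counts include them. The genes, lists and tests were chosen with earlier results of these data known. Replicates are separate mice. Their numbers name different animals, and the study states no pairing. Within groups, all pairs of libraries differed by more than sampling noise (chi-square per degree of freedom of at least 28.9). Jak1 overlaps Raver2 (4 exonic bases) and Stat3 overlaps Stat5a (72 exonic bases), each on the opposite strand. Protein sequences were not used here.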

Additional observations from a re-analysis of the deposited data

Results flagged for a closer look

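In 3 of 48 groups of 4 libraries 1 library lay far from the other 3 by Dixon's criterion, of which chance gives about 1 in 20, or 2.4. Il6st in fat KPC 5 was at 293 CPM, with the nearest of its group at 182 CPM. Socs3 in quadriceps KPC IL6KO 1 was at 12.8 CPM, with the nearest at 4.63 CPM. Lifr in quadriceps KPC 2 was at 29.2 CPM, with the nearest at 19.8 CPM.

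The change from no tumor to KPC differed between the tissues for 5 genes, by the interaction test. As log2 fold change in quadriceps minus that in fat, the difference was 4.90 for Il6ra, -4.45 for Lif, -3.16 for Socs3, -1.28 for Lifr and -1.09 for Jak2. Tissue and sequencing run cannot be told apart in this comparison.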

How the results depend on the processing

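Over the 10 genes and all alternatives, 1057 values kept their direction and side of the threshold, 37 newly passed it, 5 no longer passed and 47 changed sign, and the cause was not tested where no construction shows it. The counts of called genes in quadriceps KPC (7 against no tumor, 5 against KPC IL6KO) stayed within 1.5 times, at 6 to 8 and 5 to 6 when 1 library was left out. Il6st passed under DESeq2, RLE scaling (both log2 0.62) and the fit of only both groups (0.61), and Socs3 under the likelihood ratio test (1.04), DESeq2 (1.08) and the fit of only both groups (1.06). In quadriceps KPC IL6KO against no tumor the count was 1 (Osmr) under the likelihood ratio test and DESeq2, where 95 and 96 of all genes were called, and the FDR of Osmr ran from 0.000476 to 0.896 over all alternatives. In fat KPC against no tumor the count was 2 (Il6 and Socs3) under the likelihood ratio test (413 of all genes), DESeq2 (585), only both groups compared (174), the epididymis covariate (328) and libraries with high Gpx5 (393), and 1 (Socs3) under the newer quasi-likelihood form (16). It was 0 to 1 when 1 library was left out (0 to 15 of all genes). In fat KPC IL6KO it was 2 under the likelihood ratio test (209) and DESeq2 (286) and 0 to 1 when 1 library was left out (0 to 13). The FDR of Socs3 ran from 7.38e-09 to 0.316 in KPC and from 5.18e-07 to 0.767 in KPC IL6KO, and that of Il6 from 0.000121 to 0.493 and from 0.000741 to 1. In fat KPC against KPC IL6KO none of the 10 genes was called under any alternative, and of all genes 66, 125 and 1 were under the likelihood ratio test, DESeq2 and the newer form. The tissue difference in KPC IL6KO passed for 1 gene (Socs3) under the likelihood ratio test and for 0 to 2 when 1 library was left out. Il6 could not be fitted with at least 10 counts in every library.

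With the replicate number as a block, the count of all genes called in KPC quadriceps stayed within 1.5 times, and Il6st (0.61) and Socs3 (1.01) were called and Jak1 (0.53) was not. Same-number libraries deviated together with r of -0.167 to 0.275 in quadriceps (median 0.054) and -0.573 to 0.585 in fat (median 0.101). For libraries of different number r was -0.253 to 0.307 in quadriceps (median -0.038) and -0.641 to 0.665 in fat (median -0.127). With ranges that overlap this widely, these values cannot decide whether the numbers pair the mice. Under the block the sign changed for Il6ra in quadriceps KPC IL6KO (-0.095) and, in fat, for Lifr in KPC IL6KO (0.0015) and for Jak1 (-0.0020) and Stat3 (-0.0017) between the tumor groups, all near 0. Other changes of sign were Jak2 in fat KPC IL6KO under DESeq2 (-0.016), RLE (-0.016), the 10-count filter (-0.0097) and the covariate (-0.069), and, between the tumor groups in fat under the covariate, Jak1 (-0.078) and Lif (1.58).

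Leaving out 1 library changed the sign of these log2 differences. In quadriceps KPC IL6KO against no tumor they ran from -0.19 to 0.21 for Il6ra, -0.094 to 0.031 for Jak2, -0.14 to 0.042 for Stat3 and -0.094 to 0.020 for Lifr, and between the tumor groups from -0.042 to 0.88 for Socs3. In fat KPC they ran from -0.18 to 0.33 for Il6st, -0.060 to 0.30 for Lifr, -0.048 to 0.17 for Jak1 and -0.026 to 0.17 for Jak2. In fat KPC IL6KO they ran from -0.15 to 0.18 for Lifr, -0.023 to 0.073 for Jak2 and -0.061 to 0.16 for Jak1. Between the tumor groups in fat they ran from -0.068 to 0.086 for Jak1, -0.038 to 0.16 for Jak2, -0.26 to 0.23 for Stat3, -0.056 to 0.61 for Socs3, -0.22 to 0.42 for Osmr, -0.020 to 0.26 for Lifr and -0.97 to 0.54 for Lif. Tissue differences ran from -0.095 to 0.49 for Osmr and -0.36 to 0.16 for Stat3 in KPC, and from -0.17 to 0.13 for Lifr, -0.093 to 0.050 for Jak2, -0.31 to 0.13 for Osmr and -0.0036 to 0.16 for Jak1 in KPC IL6KO.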
